A study of Mus musculus with 29 samples.

Results

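Matrix metalloproteases are zinc-dependent endopeptidases that cut collagens, elastin, proteoglycans and other proteins of the extracellular matrix, and 10 of them were followed here through the aortic arch of progeroid and wildtype mice. The 10 genes were taken by name (Mmp2, Mmp3, Mmp9, Mmp11, Mmp14, Mmp15, Mmp17, Mmp19, Mmp23 and Mmp24) and matched to the Ensembl gene identifiers of a count table with 56748 genes, of which 12353 had enough counts to be tested. Of the 10, 9 passed that filter, which asked for more than 10 counts in more than 10 samples. Mmp24 did not, with 12 counts in all over 28 samples and at most 2 in a sample.

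Bulk RNA was sequenced from the aortic arch of 29 mice, perfused with saline, and 28 of them were used. In every cell of Ercc1Δ/− mice the DNA repair gene Ercc1 has lost function on 1 chromosome, while the other makes a shortened, partly active protein. They were compared with wildtype (WT) littermates of the same F1 C57BL6J/FVB hybrid background, all kept singly on AIN93G pellets. At 6 weeks of age there were 5 WT and 5 Ercc1Δ/− mice fed ad libitum (AL), and at 22 weeks 4 WT and 4 Ercc1Δ/− mice fed AL and 5 WT and 5 Ercc1Δ/− mice under dietary restriction (DR), which started at 7 weeks and reached 30% from 9 weeks on. Both sexes were present, with 17 males and 11 females among the 28 mice, and sample 003, a WT mouse of 22 weeks on AL that the study left out for low counts, was left out here too.

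Library totals ran from 921167 to 9616382 counts per sample (median 3256708) and were lower in the Ercc1Δ/− samples of 22 weeks (921167 to 3855444) than in the WT samples of that age (2660422 to 9616382). Ercc1 itself had 14.2 to 37.0 CPM (counts scaled to the same library total) in the 14 WT samples and 7.67 to 21.4 in the 14 Ercc1Δ/− samples, and was lower in Ercc1Δ/− mice in all 3 genotype comparisons (log2 fold change -1.41 at 6 weeks, -0.97 at 22 weeks on AL and -1.01 on DR), the ranges overlapping at 6 weeks. Smooth muscle markers, the defining genes of this tissue, were present in every sample, with 16701 to 42794 CPM summed over 7 genes. Sample 016 (Ercc1Δ/−, 22 weeks, DR) stood apart with a macrophage marker sum of 1232 CPM against 359 to 461 CPM in the other samples of its group, so the member calls that involve this group are also given without it. The same sample held the highest sum of 5 neutrophil markers, 18.9 CPM against at most 5.56 CPM in every other sample. Most of that sum came from Csf3r, with up to 28 counts in a sample. The others had at most 8 (S100a8), 6 (S100a9), 1 (Retnlg) and 0 (Ly6g) counts in any sample.

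Metalloproteases are made as inactive proenzymes whose propeptide must be cut or displaced, by furin-like convertases inside the cell or by plasmin and other proteases outside it. Active enzymes are held in check by the tissue inhibitors of metalloproteases (TIMPs). Secreted members act in the matrix around the cell, membrane-type members act at the cell surface, and in arteries the family is known for the turnover of collagen and elastin in the wall. The members divide into 5 secreted enzymes (Mmp2, Mmp3, Mmp9, Mmp11 and Mmp19), 4 membrane-type enzymes (Mmp14, Mmp15 and Mmp24 with a transmembrane helix, and Mmp17 with a lipid anchor) and Mmp23, which enters the membrane as a type II protein and is cut free by furin.

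Promoter windows differed between the members. RefSeq windows of build GRCm38.p6, from 250 bases before to 50 bases after a gene start, were at hand for 6 of the 10 members, in 7 entries (Mmp3, Mmp11, Mmp14, Mmp15, Mmp24 and Mmp23, with 2 starts). Those of Mmp3, the member with the largest fold changes, and of Mmp14, a membrane-type member that also changed, are shown because they contrast in base composition and in short motifs. The capitals mark TGANTCA (the AP-1 site), AGGAAG (an Ets site), TATAAA (the TATA box) and GGGCGG (the GC box), searched on both strands.
Mmp3, chr9:7445572-7445871, plus strand: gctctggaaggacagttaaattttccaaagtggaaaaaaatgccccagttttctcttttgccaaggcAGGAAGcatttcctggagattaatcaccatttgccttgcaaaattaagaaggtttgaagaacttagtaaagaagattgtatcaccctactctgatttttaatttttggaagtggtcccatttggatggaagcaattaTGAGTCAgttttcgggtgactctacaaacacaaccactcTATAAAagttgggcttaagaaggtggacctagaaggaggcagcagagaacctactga
Mmp14, chr14:54431348-54431647, plus strand: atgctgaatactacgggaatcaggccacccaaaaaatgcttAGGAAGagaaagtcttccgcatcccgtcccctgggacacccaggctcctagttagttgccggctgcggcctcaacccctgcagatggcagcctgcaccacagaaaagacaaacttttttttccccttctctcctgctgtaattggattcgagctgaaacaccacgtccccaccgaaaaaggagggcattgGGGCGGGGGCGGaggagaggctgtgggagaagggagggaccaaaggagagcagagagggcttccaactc
The Mmp3 window, with 40.0% G and C, held 1 AP-1 match from base -46 to -40, counted from the gene start, 1 Ets match from -183 to -178 and 1 TATA box from -7 to -2. The Mmp14 window, with 56.0% G and C, held 1 Ets match from -209 to -204 and 2 adjoining GC boxes from -19 to -8. Among 32851 promoter windows of that length, 7.81% held an AP-1 match, 35.4% an Ets match, 13.6% a TATA box and 35.7% a GC box. AP-1 and the TATA box were matched in no other member window, and GC boxes were matched in those of Mmp11, Mmp15, Mmp24 and the second start of Mmp23. These matches are descriptions of letters and not of sites in use.

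Per length, Mmp2 was by far the most abundant member. On a scale per length (TPM, counts divided by exon length and brought to a common total), the means ± SD over the 28 samples were 487 ± 151 for Mmp2, 177 ± 37.1 for Mmp23, 104 ± 30.6 for Mmp17 and 68.1 ± 12.4 for Mmp14. Mmp2 encodes gelatinase A, which degrades denatured collagen and basement membrane collagen, and Mmp14 encodes its activator at the cell surface. Lower levels were found for Mmp3 (34.8 ± 33.1 TPM), Mmp19 (21.8 ± 6.66 TPM), Mmp11 (17.4 ± 4.05 TPM), Mmp15 (13.0 ± 4.75 TPM), Mmp9 (3.03 ± 1.60 TPM) and Mmp24 (0.10 ± 0.21 TPM). The neighbours Mmp19, Mmp11 and Mmp15 did not differ beyond their spread, and Mmp3 spanned 2.51 to 132 TPM, so that its place in the order depended on the group. Counting covered the whole gene body, and with the gene span in place of exon length Mmp23, a short gene, came first with 303 TPM, ahead of Mmp2 with 136 TPM.

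**Figure D1:**
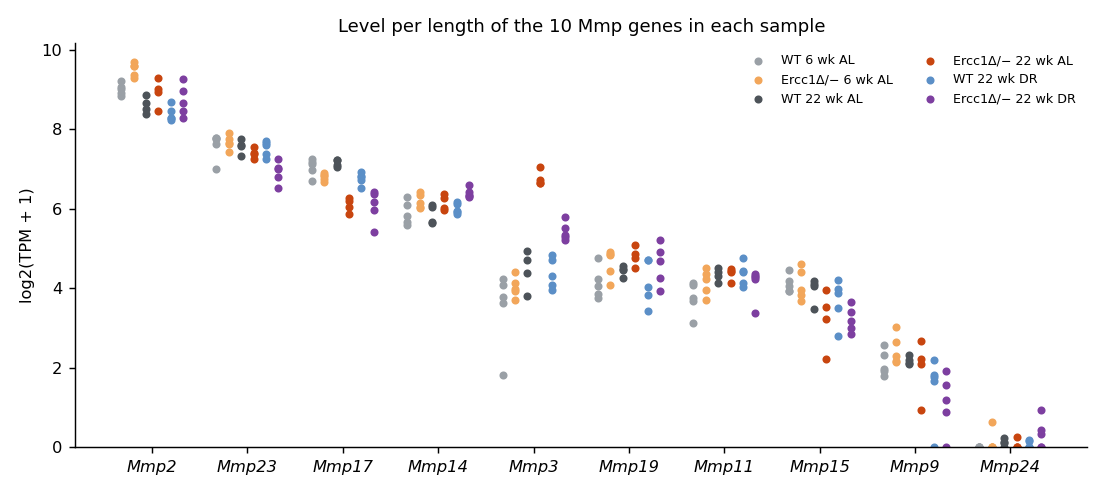
Level per length, as log2(TPM + 1), of the 10 members in each of the 28 samples, ordered by mean level and coloured by group. Mmp2 is highest in the order, Mmp24 lies near 0, and Mmp3 is the member whose groups lie farthest apart.

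Of the summed TPM of all 23 Mmp genes, Mmp2 took 44.4% ± 3.43 (SD) at 22 weeks in the 4 WT mice on AL and 49.2% ± 5.55 (SD) in the 4 Ercc1Δ/− mice on AL. The share of Mmp3 was 2.51% ± 0.84 in the former and 11.0% ± 1.63 in the latter. That of Mmp17 was 16.1% ± 2.05 in WT and 6.91% ± 1.59 in Ercc1Δ/− mice. On exon length the 2 genes thus stood in the reverse order in the 2 genotypes at 22 weeks on AL. This order depended on the scale. With gene span in place of exon length, the means in these Ercc1Δ/− mice were close, 37.3 TPM for Mmp3 and 33.9 TPM for Mmp17. In CPM, with no division by length, Mmp17 stayed above Mmp3 in them (105 against 43.5).

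Mmp3 had the highest log2 fold change of the 9 tested members between genotypes at 22 weeks on AL and on DR. It encodes stromelysin-1 (ENSMUSG00000043613, chr9:7445822-7455975 of GRCm39, plus strand), a secreted enzyme that cuts proteoglycans, fibronectin and basement membrane proteins and activates other proenzymes. At 6 weeks its level was 6.56, 7.11, 1.09, 4.65 and 4.75 CPM in the 5 WT samples. The 5 Ercc1Δ/− samples of 6 weeks had 5.82, 6.32, 5.28, 7.33 and 5.10 CPM, all within or just above the WT range. Mmp3 thus overlapped between genotypes at this age. At 22 weeks on AL it was 9.75, 4.75, 11.4 and 7.22 CPM in the 4 WT samples and 40.6, 38.2, 54.5 and 40.5 CPM in the 4 Ercc1Δ/− samples. Each of the latter lay above every sample of the other groups. On DR it was 5.44, 9.85, 6.54, 11.1 and 7.10 CPM in the 5 WT samples. The 5 Ercc1Δ/− samples on DR had 24.9, 18.2, 13.7, 14.8 and 15.0 CPM, above all WT samples and below all AL-fed Ercc1Δ/− samples of that age. These levels rest on 1 to 166 raw counts per sample.

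Mmp17 had the lowest log2 fold change of the 9 tested members between genotypes at 22 weeks on AL. It encodes MT4-MMP (ENSMUSG00000029436, chr5:129661084-129688163, plus strand), held at the cell surface by a glycosylphosphatidylinositol anchor and known from vascular smooth muscle. At 6 weeks its level was 230, 237, 173, 199 and 199 CPM in WT and 174, 176, 155, 163 and 165 CPM in Ercc1Δ/− samples, with a narrow overlap of the groups. At 22 weeks on AL it was 224, 186, 203 and 210 CPM in WT and 87.2, 97.3, 116 and 122 CPM in Ercc1Δ/− samples. The 2 groups did not overlap. On DR it was 159, 183, 168, 143 and 162 CPM in WT and 74.1, 98.3, 119, 123 and 108 CPM in Ercc1Δ/− samples, again without overlap. The Ercc1Δ/− samples on DR covered the range of the AL-fed ones.

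**Figure D2:**
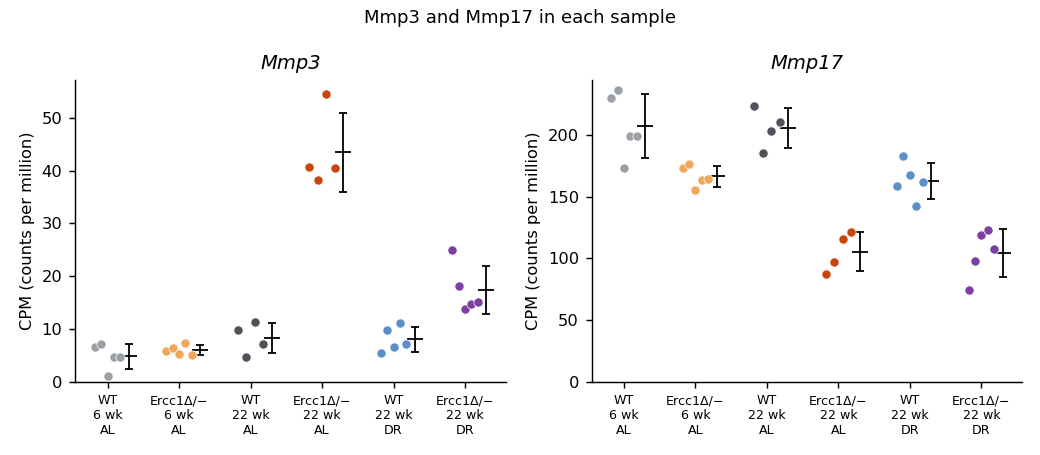
CPM of Mmp3 (left) and Mmp17 (right) in each of the 28 samples by group, with a bar for the mean and whiskers of 1 SD beside the points. Mmp3 lies at 38.2 CPM or more only in AL-fed Ercc1Δ/− samples of 22 weeks, and Mmp17 lies at 123 CPM or less only in Ercc1Δ/− samples of 22 weeks.

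Genotype was compared within each age and diet, to ask how the progeroid aorta differed from that of WT littermates. A gene was called at an adjusted p of at most 0.05 and a fold change of at least 1.2 in either direction. At 6 weeks on AL, 0 of the 9 tested members were called by edgeR, against 1.70% of all tested genes, while 3 had an unadjusted p under 0.05 and DESeq2 called 2 (Mmp2 and Mmp17). Mmp2 was the nearest to the threshold, with a log2 fold change (± SE) of 0.45 ± 0.13 (edgeR adjusted p = 0.0785) and groups that did not overlap. Mmp17 (-0.30 ± 0.09, edgeR adjusted p = 0.0819) and Mmp19 (0.39 ± 0.19, edgeR adjusted p = 0.384) had groups that overlapped. The estimate for Mmp3 was small (0.18 ± 0.26, edgeR adjusted p = 0.841), with a 95% interval from -0.35 to 0.71.

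At 22 weeks on AL, 2 of the 9 members were called, against 12.0% of all tested genes, 1 in each direction. Mmp3 was 5.86-fold higher in Ercc1Δ/− mice (2.55 ± 0.21, edgeR adjusted p = 7.25e-08), with a 95% interval of the fold from 4.32 to 7.96 and mean levels ± SD of 43.5 ± 7.46 and 8.27 ± 2.90 CPM. Mmp17 was 1.91 times lower (-0.94 ± 0.10, edgeR adjusted p = 2.84e-06), with 105 ± 16.0 against 206 ± 15.9 CPM. Mmp2 (0.43 ± 0.15, edgeR adjusted p = 0.0555), Mmp14 (0.40 ± 0.16, edgeR adjusted p = 0.104) and Mmp19 (0.44 ± 0.20, edgeR adjusted p = 0.166) had an unadjusted p under 0.05 and did not pass the adjusted threshold, although the groups of Mmp19 did not overlap. The other 4 lay between -0.40 and 0.15 on the log2 scale. Among secreted members all 5 estimates were above 0 (median 0.43) and among the 3 tested membrane-type members 1 was (median -0.40), against a median of 0.03 over all genes. The called member of each class was the gene that the choice of genes had named for its direction.

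Under DR, 5 of the 9 members were called between genotypes, against 13.0% of all tested genes, Mmp3 and Mmp17, the genes named for their direction, among them. Mmp3 (1.16 ± 0.24, edgeR adjusted p = 0.00168), Mmp14 (0.42 ± 0.12, edgeR adjusted p = 0.0170) and Mmp2 (0.38 ± 0.11, edgeR adjusted p = 0.0232) were higher in Ercc1Δ/− mice. Mmp17 (-0.63 ± 0.11, edgeR adjusted p = 4.34e-04) and Mmp23 (-0.53 ± 0.10, edgeR adjusted p = 7.96e-04) were lower. Of the 5 secreted members 3 had estimates above 0 here (median 0.38), and of the 3 tested membrane-type members 1 (median -0.53), against a median of 0.00 over all genes. Without sample 016 the same 5 members were called, with log2 fold changes of 1.25 for Mmp3, 0.45 for Mmp14, 0.37 for Mmp2, -0.67 for Mmp17 and -0.52 for Mmp23. The call for Mmp14 was lost without Ercc1Δ/− sample 014 (adjusted p = 0.0523) and that for Mmp2 without Ercc1Δ/− sample 022 (adjusted p = 0.0715).

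**Figure D3:**
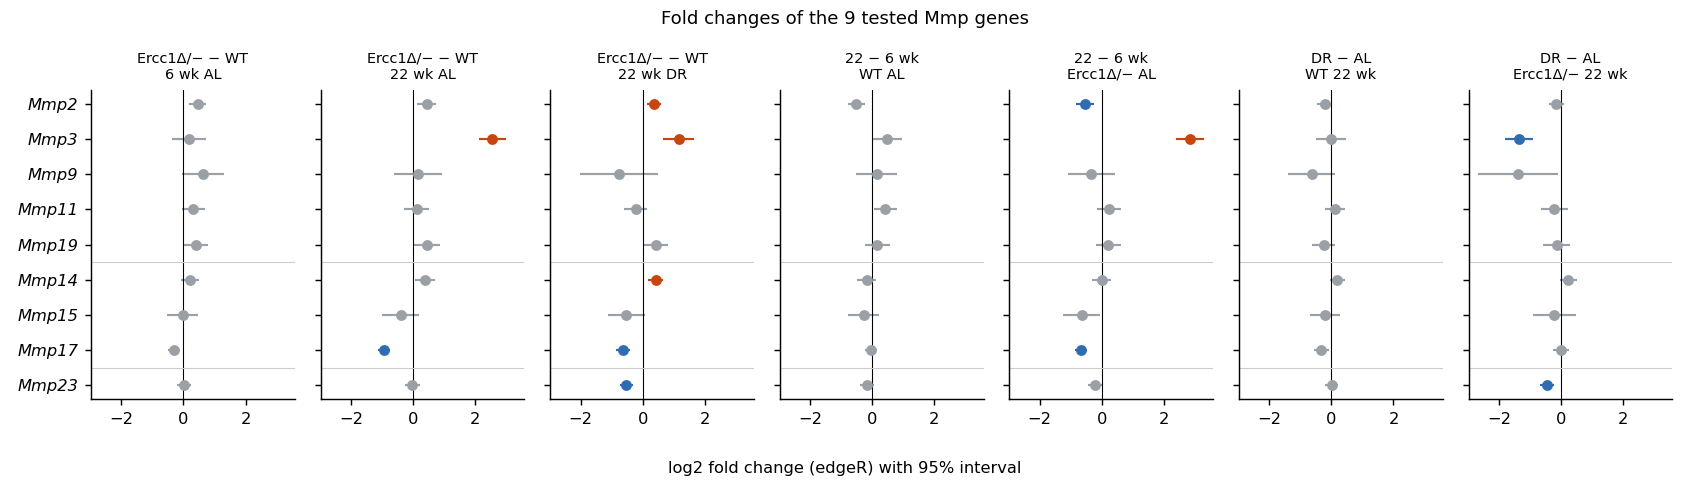
Log2 fold changes with 95% intervals of the 9 tested members in 7 comparisons, secreted members above the first line, membrane-type members between the lines and Mmp23 below. Coloured points were called (red higher, blue lower), grey points were not, and the called points are Mmp3 in 4 panels, Mmp17 in 3, Mmp2 and Mmp23 in 2 each and Mmp14 in 1.

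Mmp23 and Mmp14 were called by edgeR between genotypes on DR and not on AL. Mmp23 (ENSMUSG00000029061, chr4:155735111-155738378, minus strand) had 116, 113, 102, 90.8 and 111 CPM in DR-fed WT and 74.7, 55.6, 72.9, 84.4 and 74.5 CPM in DR-fed Ercc1Δ/− samples. Those of AL-fed Ercc1Δ/− mice of 22 weeks were 87.9, 98.1, 116 and 101 CPM, so that the DR-fed Ercc1Δ/− samples lay below both other groups. Mmp14 (ENSMUSG00000000957, chr14:54668878-54682821, plus strand) encodes MT1-MMP, a collagenase of the cell surface. It had 75.6, 81.6, 81.1, 94.1 and 91.3 CPM in DR-fed WT and 120, 134, 101, 103 and 113 CPM in DR-fed Ercc1Δ/− samples, without overlap, whereas the genotypes overlapped at 22 weeks on AL (89.3, 81.7, 65.2 and 60.5 against 82.0, 102, 117 and 89.2 CPM). A difference of the genotype effect between diets was called for neither Mmp23 nor Mmp14 by edgeR or DESeq2, and the Mmp14 levels of DR-fed and AL-fed Ercc1Δ/− samples overlapped.

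Mmp2 (ENSMUSG00000031740, chr8:93553902-93580049, plus strand) had its highest levels at 6 weeks. Its level was 418, 465, 390, 391 and 389 CPM in WT and 644, 472, 564, 475 and 644 CPM in Ercc1Δ/− samples of 6 weeks, the latter all above the former. At 22 weeks on AL it was 278, 333, 304 and 239 CPM in WT and 377, 475, 420 and 280 CPM in Ercc1Δ/− samples, with overlap of the genotypes. The DR-fed samples had 221, 240, 332, 277 and 229 CPM in WT and 314, 397, 300, 449 and 238 CPM in Ercc1Δ/− mice, also with overlap.

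**Figure D4:**
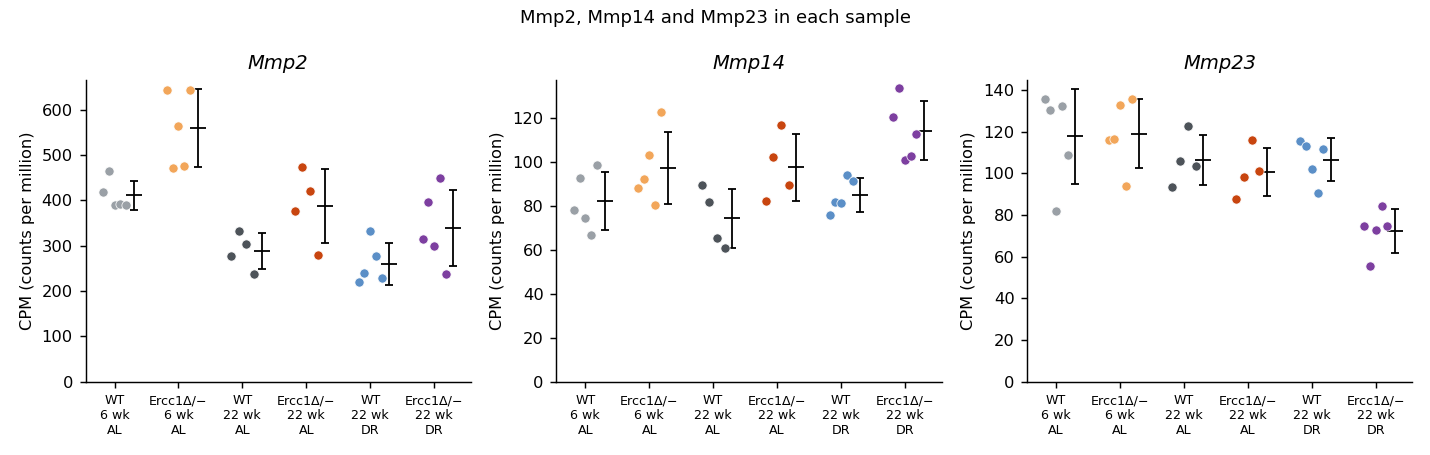
CPM of Mmp2, Mmp14 and Mmp23 in each of the 28 samples by group, with a bar for the mean and whiskers of 1 SD. All 5 DR-fed Ercc1Δ/− samples have less Mmp23 (55.6 to 84.4 CPM) and more Mmp14 (101 to 134 CPM) than the 5 DR-fed WT samples.

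Age was compared within each genotype on AL, to ask what changed between 6 and 22 weeks. In WT mice 0 of the 9 members were called by edgeR, against 0.235% of all tested genes, while 2 had an unadjusted p under 0.05 and DESeq2 called 0. Those 2 were Mmp2 (-0.51 ± 0.14, edgeR adjusted p = 0.138), whose groups did not overlap, and Mmp11 (0.43 ± 0.18, edgeR adjusted p = 0.467), stromelysin-3. The estimates for Mmp3 (0.48 ± 0.24, edgeR adjusted p = 0.598) and Mmp17 (-0.04 ± 0.09, edgeR adjusted p = 0.961) did not pass. In Ercc1Δ/− mice 3 of the 9 were called, against 4.69% of all tested genes, Mmp3 and Mmp17, the genes named for their direction, among them. Mmp3 rose 7.19-fold (2.85 ± 0.21, edgeR adjusted p = 2.10e-08), with a 95% interval from 5.28 to 9.80, and had the smallest p of all genes that rose. Mmp17 fell (-0.67 ± 0.10, edgeR adjusted p = 9.50e-05). Mmp2 fell as well (-0.53 ± 0.14, edgeR adjusted p = 0.0278), a call that was lost without Ercc1Δ/− sample 002 of 6 weeks (adjusted p = 0.0689) or sample 004 (0.0840) or 026 (0.122) of 22 weeks. Mmp15 did not pass (-0.65 ± 0.28, edgeR adjusted p = 0.232). The comparisons with AL-fed Ercc1Δ/− mice of 22 weeks share those 4 samples, so they are not independent of each other.

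The genotypes differed in the change with age for 2 of the 9 members, against 0.842% of all tested genes (interaction, called at an adjusted p of at most 0.05). These 2 were the genes that the choice of members had named for their direction, so this count is a description. The log2 difference of differences was 2.37 ± 0.33 (edgeR adjusted p = 7.49e-04) for Mmp3 and -0.63 ± 0.13 (edgeR adjusted p = 0.0174) for Mmp17. The call for Mmp17 was lost without Ercc1Δ/− sample 004 (adjusted p = 0.0640), Ercc1Δ/− sample 008 (0.0565) or WT sample 018 (0.0530). The other 7, Mmp2 among them, lay between -0.48 and 0.17 with adjusted p of at least 0.769.

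Diet was compared within each genotype at 22 weeks, to ask what DR changed. In WT mice 0 of the 9 members were called by edgeR, against 1.28% of all tested genes, while 1 had an unadjusted p under 0.05 and DESeq2 called 0. That member was Mmp17 (-0.32 ± 0.11, edgeR adjusted p = 0.179), whose DR-fed samples all lay below the AL-fed ones. The estimate for Mmp3 in WT mice was near 0 (-0.01 ± 0.23, edgeR adjusted p = 0.993), with a 95% interval from -0.49 to 0.47. In Ercc1Δ/− mice 2 of the 9 were called, against 1.64% of all tested genes, both lower on DR. Mmp3 fell to 0.39 of the AL level (-1.36 ± 0.22, edgeR adjusted p = 0.00139), with a 95% interval from 0.28 to 0.53, and its log2 fold change without sample 016 was -1.28. Mmp23 fell too (-0.45 ± 0.11, edgeR adjusted p = 0.0353), a call that was lost when any of 7 of the 9 samples was left out (adjusted p up to 0.0922 without AL sample 013, and 0.0577 without sample 016). Mmp17 was near 0 in Ercc1Δ/− mice (0.01 ± 0.12, edgeR adjusted p = 0.984), with a 95% interval from -0.24 to 0.26, and at -0.03 without sample 016.

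The response to DR was called as different between genotypes for 0 of the 9 members by edgeR, against 0.0971% of all tested genes, while 2 had an unadjusted p under 0.05 and DESeq2 called 1 (Mmp3, adjusted p = 0.0429). The log2 difference of differences was -1.35 ± 0.33 (edgeR adjusted p = 0.140) for Mmp3, -0.47 ± 0.15 (edgeR adjusted p = 0.313) for Mmp23 and 0.33 ± 0.17 (edgeR adjusted p = 0.595) for Mmp17. In the edgeR fit with no filter on low counts that of Mmp3 was called (-1.34, adjusted p = 0.0110), so that this call depended on the filter and the tool. Without sample 016 the values were -1.28 for Mmp3 (edgeR adjusted p = 0.197), -0.45 for Mmp23 (0.394) and 0.30 for Mmp17 (0.672). Sex, as a term over all groups, was called for 0 of the 9 members by edgeR, against 0.186% of all tested genes, while 2 had an unadjusted p under 0.05 and DESeq2 called 0. Those, as male minus female, were Mmp19 (-0.40 ± 0.13, edgeR adjusted p = 0.271) and Mmp23 (0.22 ± 0.06, edgeR adjusted p = 0.217).

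Mmp9, Mmp11, Mmp15 and Mmp19 were called in none of the 10 comparisons by edgeR or DESeq2. Mmp9 (ENSMUSG00000017737, chr2:164780439-164797771), gelatinase B, known from neutrophils and macrophages, had only 0 to 24 counts per sample and ranged from 0 to 5.82 CPM. Its estimates had wide errors, as in the DR comparison of Ercc1Δ/− mice (-1.40 ± 0.63, edgeR adjusted p = 0.281). Mmp11 (ENSMUSG00000000901, chr10:75759055-75772330) ranged from 6.54 to 19.0 CPM. Mmp19 (ENSMUSG00000025355, chr10:128626773-128636695), a basement membrane protease, ranged from 7.49 to 28.8 CPM. Mmp15 (ENSMUSG00000031790, chr8:96078895-96101708), which encodes MT2-MMP, ranged from 4.55 to 29.7 CPM. The Mmp19 gene lies wholly within Tmem198b on the other strand, and 25.4% of the Mmp11 span overlaps Chchd10 on the other strand. Whether counting used the strand is not given in the sources used here, so the values of these 2 members are uncertain to that extent. Mmp14 overlaps the noncoding gene Gm56768 on the same strand over 6.6% of its span, and Gm56768 had at most 30 counts in a sample. Overlaps on the other strand covering 1.6 to 7.8% of the span lay in Mmp2, Mmp14 and Mmp24. The effect of these overlaps on the counts was not tested.

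Mmp24 (ENSMUSG00000027612, chr2:155617098-155660319), which encodes MT5-MMP, known mainly from nervous tissue, had 0 counts in the 5 WT samples of 6 weeks, which allows up to 0.148 CPM over their summed total (3 counts, counting error only). In the other groups it had 1 to 4 counts in all. No difference was detectable at this depth.

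Of the 13 further Mmp genes, 2 passed the filter (Mmp16 and Mmp28), and neither was called by edgeR in any comparison, Mmp28 having an unadjusted p under 0.05 in 2 of them. Mmp1a, Mmp7, Mmp10 and Mmp20 had 0 counts in all 28 samples, which allows up to 0.0289 CPM each, and Mmp1b, Mmp8, Mmp13, Mmp21 and Mmp25 had 1 to 10 counts in all. Mmp27 had 231 counts and did not pass the filter. Mmp12, the macrophage metalloelastase, had too few counts for the filter but differed between genotypes. Its level at 22 weeks on AL was 0, 0, 0.232 and 0.619 CPM in WT and 15.4, 5.70, 2.27 and 6.76 CPM in Ercc1Δ/− samples, and on DR 0.181, 0, 0.177, 0.326 and 0 CPM in WT and 1.28, 3.21, 5.21, 0.370 and 2.07 CPM in Ercc1Δ/− samples. The genotypes did not overlap on AL, and on DR the lowest Ercc1Δ/− and the highest WT sample rest on 1 count each, and 8 of the 18 counts of the DR-fed Ercc1Δ/− group came from sample 016. In the edgeR fit with no filter on low counts it was higher in Ercc1Δ/− mice on AL (log2 fold change 4.54 ± 0.59, SE, adjusted p = 3.32e-07) and on DR (3.64 ± 0.86, adjusted p = 0.00192), and lower on DR than on AL in Ercc1Δ/− mice (-1.95 ± 0.46, adjusted p = 0.0124). Without sample 016 these edgeR values on DR were 3.02 ± 0.94 (adjusted p = 0.0313) and -2.51 ± 0.49 (adjusted p = 3.27e-04). At 6 weeks on AL the edgeR fit with no filter also called Mmp12 higher in Ercc1Δ/− mice (2.46 ± 0.64, adjusted p = 0.0440). That call rests on 41 counts against 9, and the levels of the genotypes overlapped. With age Mmp12 rose in AL-fed Ercc1Δ/− mice in the same edgeR fit (1.55 ± 0.41, adjusted p = 0.0285).

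Genes chosen for the control of the enzymes were described in 5 lists with 55 genes, of which 41 were tested. In AL-fed mice of 22 weeks 12 of the 41 were called between genotypes (8 higher, 4 lower), against 12.0% of all tested genes, and in DR-fed mice 12 (4 higher, 8 lower), against 13.0%. With age in Ercc1Δ/− mice 7 were called (5 higher, 2 lower), against 4.69%, and with DR in Ercc1Δ/− mice 7, all lower, against 1.64%. Without sample 016 the counts were 11 between DR-fed genotypes (3 higher, 8 lower) and 6 with DR in Ercc1Δ/− mice, all lower. The medians of the 41 log2 fold changes in these 4 comparisons were 0.05, 0.02, 0.05 and -0.12, against 0.03, 0.00, 0.01 and 0.00 over all tested genes.

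Among the inhibitors, of which 5 of 7 were tested, Timp1 and Timp4 were called at 22 weeks on AL in the same direction as Mmp3. There Timp1 had 46.1 CPM on average in Ercc1Δ/− and 10.5 CPM in WT mice (2.10 ± 0.33, edgeR adjusted p = 3.98e-04) and Timp4 37.5 and 12.4 CPM (1.70 ± 0.18, edgeR adjusted p = 2.84e-06). Both rose with age in Ercc1Δ/− mice, Timp1 by 1.14 and Timp4 by 0.89 on the log2 scale, and both had a called interaction of genotype and age (2.00 and 1.30). On DR, Timp1 fell in Ercc1Δ/− mice (-1.41 ± 0.21, edgeR adjusted p = 0.00108), with a called interaction of genotype and diet (-1.60, adjusted p = 0.0349), and Timp2, which also takes part in the activation of pro-Mmp2 by Mmp14, fell (-0.34 ± 0.08, edgeR adjusted p = 0.0345). Between DR-fed genotypes Timp4 was higher (1.11) and Timp3 (-0.28) and Reck (-0.37), a membrane-anchored inhibitor, were lower in Ercc1Δ/− mice.

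Among the activators, of which 8 of 13 were tested, the proprotein convertase gene Pcsk5 was lower in AL-fed Ercc1Δ/− mice of 22 weeks (-1.11 ± 0.14, edgeR adjusted p = 1.96e-05), on DR (-0.67) and with age in Ercc1Δ/− mice (-0.78). The serine protease genes Htra1 (-0.41) and Prss23 (-0.58) were lower in AL-fed Ercc1Δ/− mice of 22 weeks too. Plau, which encodes the plasminogen activator urokinase, fell on DR in Ercc1Δ/− mice (-1.31 ± 0.33, edgeR adjusted p = 0.0408), a call that was lost without sample 016. In the list of plasmin control and clearance, with 7 of 8 tested, Thbs1 (1.45 ± 0.38, edgeR adjusted p = 0.0199) and the collagen receptor gene Mrc2 (0.45) were higher in AL-fed Ercc1Δ/− mice of 22 weeks.

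Among the inducers, of which 6 of 11 were tested, Spp1 (osteopontin) was higher in AL-fed Ercc1Δ/− mice of 22 weeks (5.44 ± 0.49, edgeR adjusted p = 4.03e-06) and fell on DR (-2.90 ± 0.27, edgeR adjusted p = 1.24e-06), and Bsg, which encodes the metalloprotease inducer basigin, was higher in the former comparison (0.41). Among the transcription factors of Mmp promoters, of which 15 of 16 were tested, Spi1 (1.31) and Runx1 (0.98) were higher and Fosl2, a partner in AP-1, was lower (-0.47) in AL-fed Ercc1Δ/− mice of 22 weeks.

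Markers of macrophages and of smooth muscle were called in some of the same comparisons and not in others. With age in AL-fed Ercc1Δ/− mice 5 of 8 macrophage markers were called higher and 1 of 7 smooth muscle markers lower, against 4.69% of all tested genes. In the interaction of genotype and age, where Mmp3 and Mmp17 were called, 0 of either list were, against 0.842%. At 22 weeks on AL, 7 of 8 macrophage markers were called higher and 6 of 7 smooth muscle markers lower in Ercc1Δ/− mice, against 12.0% of all tested genes. On DR 5 macrophage markers were higher and 7 smooth muscle markers lower, against 13.0%, or 5 and 6 without sample 016. At 6 weeks 2 were higher and 2 lower, against 1.70%. Of the other lists at 22 weeks on AL, 1 of 6 endothelial and 1 of 5 heart muscle markers were higher. Of 7 fibroblast markers 1 was higher and 2 were lower. For fat 0 of 7 were called, for cartilage 0 of 2 and for nerve 0 of 3. The summed macrophage markers ran from 242 to 358 CPM in AL-fed WT, 560 to 1032 in AL-fed Ercc1Δ/−, 146 to 279 in DR-fed WT and 359 to 1232 in DR-fed Ercc1Δ/− samples of 22 weeks. The summed smooth muscle markers ran from 31727 to 38082, 16701 to 25889, 32915 to 42794 and 23408 to 25271 CPM in the same groups. With DR in Ercc1Δ/− mice 4 of 8 macrophage markers were called lower, against 1.64% of all tested genes, and 6 of 8 without sample 016. Fewer cells of a type and less RNA per cell cannot be told apart in bulk samples, and the part of either in the changes of Mmp3, Mmp12 and Mmp17 was not tested. The 5 neutrophil markers had too few counts to be tested. Over the 28 samples they had 154 (Csf3r), 35 (S100a8), 20 (S100a9), 2 (Retnlg) and 0 (Ly6g) counts in all.

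**Figure D5:**
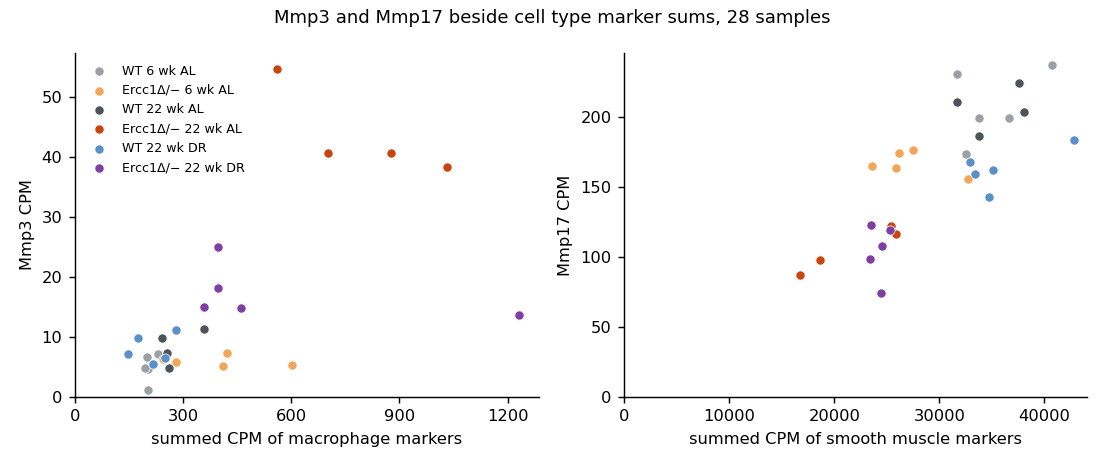
Mmp3 CPM against the summed CPM of 8 macrophage markers (left) and Mmp17 CPM against the summed CPM of 7 smooth muscle markers (right), 1 point per sample, coloured by group. AL-fed Ercc1Δ/− samples of 22 weeks are high in both left-hand measures and sample 016, at 1232 CPM of macrophage markers, has 13.7 CPM of Mmp3, the lowest of its group.

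The genes whose log2 CPM followed Mmp3 most closely over the 28 samples were Gpnmb (Pearson's r = 0.89), Fetub (0.87), Aen (0.86), Htra4 (0.86) and Sncg (0.85). With the values centred within the 6 groups they were Gm14964 (0.79), Fbxl8 (0.78), Fetub (0.77), Gm31166 (0.74) and Abraxas1 (0.73), so that Fetub was the gene found on both scales. For Mmp17 they were Gpsm2 (0.94), Hspg2 (0.92), Actg2 (0.91), Speg (0.91) and Smtn (0.91) over the samples, and Kcnh2 (0.83), Ncdn (0.80), Slc12a4 (0.77), Colgalt1 (0.75) and Habp4 (0.75) within groups. Actg2 and Smtn encode proteins of the contractile apparatus of smooth muscle. Mmp3 and Mmp17 had r = -0.72 over the samples and 0.20 within groups. All these values share libraries and depth and are given as descriptions with no p.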

How the data were processed

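Aortic arch RNA of 29 mice was sequenced in pairs with unique molecular identifiers. Per the labels and the study's methods, the authors trimmed reads with fastp, aligned them with STAR 2.7.10a to GRCm39 (Ensembl annotation), removed duplicates with UMI-tools 1.1.2 and counted reads over whole gene bodies with HTSeq 2.0.2. The deposited values are raw counts per gene, not normalized. Of the count lines, 5 that name no gene were left out of totals, among them no-feature reads at 7.27 to 10.1% and ambiguous reads at 1.40 to 1.82%.

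From these counts, CPM were computed on library sizes scaled by the trimmed mean of M values (factors 0.93 to 1.07), and TPM from exon lengths of the GRCm39 annotation. Genes were tested where over 10 samples each held over 10 counts, with edgeR 4.0.16 (quasi-likelihood test, R 4.3.3) on group and sex, with Benjamini-Hochberg adjustment over all 12353 genes. Genotype at AL, age and their interaction were fitted on the 18 AL-fed samples, and genotype on DR, diet and their interaction on the 18 samples of 22 weeks. Alternatives were DESeq2 1.42.0, RLE size factors, no filter, sample 003 added, no sex term, other sets of samples in the fit, thinning to 921167 counts, leaving out each sample and, chosen after seeing the data, the earlier dispersion method of edgeR and Mmp12 without sample 016. The scripts were tested on simulated data.

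Samples are separate mice. No label gives a batch. The members, the gene lists and the pairing of Mmp3 with Mmp17 were chosen with earlier results of these data known, so the opposite directions of Mmp3 and Mmp17 are a description. The genes named were the 10 members, the 13 other Mmp genes, pathway genes called where a member was called (at most 4 per list and comparison), the 5 nearest genes by correlation of log2 CPM, and Ercc1. Floors and intervals of counts cover counting error only.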

Additional observations from a re-analysis of the deposited data

Results flagged for a closer look

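Mmp3 in AL-fed Ercc1Δ/− mice of 22 weeks was highest in sample 013, with 54.5 CPM against 40.6 CPM in the next sample, a gap of 0.852 of the range of the 4 samples. Without that sample the group still lay above all others. Mmp24 was at 0.85 CPM in sample 027 of the 6-week Ercc1Δ/− group and at 0.29 CPM in sample 005 of the AL-fed Ercc1Δ/− group of 22 weeks, with 0 in all other samples of these groups, on 2 counts and 1 count. These were 3 of 59 groups of member values examined for a sample apart, and chance gives about 1 in 20. That rate does not cover the 2 Mmp24 groups, where a lone sample above 0 makes the gap the whole range.

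The change from 6 to 22 weeks differed between genotypes, by the interaction test, for Mmp3 (log2 difference 2.37) and for Mmp17 (log2 difference -0.63).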

How the results depend on the processing

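The calls of Mmp3 and Mmp17 between genotypes at 22 weeks on AL and on DR and with age in Ercc1Δ/− mice, and those of Mmp3 in the interaction of genotype and age and with DR in Ercc1Δ/− mice, held in every setting run, each sample left out included. Between genotypes at 6 weeks, DESeq2 called 2 members (Mmp2 and Mmp17) and a fit of only the compared groups 1 (Mmp2), in place of 0, with 0 to 1 when samples were left out (Mmp17 without Ercc1Δ/− sample 008). In the interaction of genotype and age, 1 member in place of 2 was called with sample 003 added and with all samples thinned, and 1 to 2 when samples were left out. With DR in Ercc1Δ/− mice, 1 member in place of 2 was called with sample 003 added, with thinning, with no sex term and with only the compared groups, and 1 to 2 when samples were left out, Mmp23 being lost without sample 005, 006, 013, 014, 016, 026 or 029. In the interaction of genotype and diet, 1 member (Mmp3) in place of 0 was called by DESeq2 and with no filter.

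Mmp2 was gained at 22 weeks on AL by DESeq2 (adjusted p = 0.0492), with no sex term in edgeR (0.0454) and without WT sample 018 or Ercc1Δ/− sample 026. It was lost with age in Ercc1Δ/− mice when only the compared groups were fitted by edgeR (adjusted p = 0.111), and on DR with no sex term (0.157) or all 6 groups (0.0817). The sign turned for Mmp3 at 6 weeks with thinning (-0.41), for Mmp3 with DR in WT mice (-0.24 to 0.15 when samples were left out) and for Mmp17 with DR in Ercc1Δ/− mice (-0.00021 with sample 003 added and -0.11 to 0.12 when samples were left out), none of them called. Over all members and comparisons, 716 fits in other settings were the same in call and direction, 33 turned a sign, 7 gained and 9 lost a call. Among the fits with a sample left out, 1060 were the same, 74 turned a sign, 3 gained and 15 lost a call. The causes were not tested.

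Over all genes, calls moved by more than 1.5 times under DESeq2 (378 in place of 210 at 6 weeks, 106 of 29 with age in WT, 197 of 104 and 43 of 12 in the interactions with age and diet, 52 of 23 for sex, 348 of 202 with DR in Ercc1Δ/− mice) and with no filter (70 with age in WT, 49 for sex, 307 in place of 158 with DR in WT, 39 in the diet interaction). With thinning they were 123 at 6 weeks, 778 in place of 1487 at 22 weeks on AL, 16 with age in WT, 384 in place of 579 with age in Ercc1Δ/− mice, 69 in the age interaction, 55 with DR in WT and 993 in place of 1605 between genotypes on DR. With sample 003 they were 99 and 101 with DR in WT and Ercc1Δ/− mice and 3 in the diet interaction. With no sex term they were 55 and 2, and with all 6 groups 66 and 5, with DR in WT and in the diet interaction. With only the compared groups they were 121 at 6 weeks and 90 with DR in Ercc1Δ/− mice. Leaving out samples gave 102 to 226 at 6 weeks, 933 to 1437 at 22 weeks on AL, 8 to 30 with age in WT, 322 to 748 with age in Ercc1Δ/− mice, 55 to 134 and 2 to 18 in the interactions, 18 to 47 for sex, and 44 to 204 and 78 to 274 with DR in WT and Ercc1Δ/− mice. Among the members counts were lowest for Mmp24 (12 in all) and Mmp9 (259 in all). No paired analysis was run, because the labels give no litter or other pairing of the mice.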

Other observations

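Sample 003, the AL-fed WT mouse of 22 weeks that was left out, had 400410 counts. Of its members, Mmp2 was at 303 CPM, within the range of the other 4 samples of its group (239 to 333 CPM), and Mmp23 at 116 CPM, also within it (93.5 to 123 CPM). Mmp14 was at 46.0 CPM and Mmp19 at 5.42 CPM, both below every other sample, on 17 and 2 counts. Its Mmp3 level was 21.7 CPM on 8 counts, above the other 4 (4.75 to 11.4 CPM). Its Mmp17 level was 89.4 CPM on 33 counts, below the other 4 (186 to 224 CPM) and within the range of the Ercc1Δ/− samples of that age. Its Ercc1 level was 8.12 CPM on 3 counts, and Mmp12 was at 0.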
